A study of Mus musculus with 6 samples.

Results

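The Gimap genes form a compact cluster on mouse chromosome 6, and the binding of the co-repressor mSin3A across that cluster was examined in CD8 T cells with and without Tcf1 and Lef1. The cluster was taken as chromosome 6, 48585000 to 48735000 in build mm9, a span of 150 kb with Gimap8 at the proximal end and Gimap3 at the distal end. Every enriched region (island) with at least 1 bp in that span, in any of 4 deposited lists, was a member. There were 44 such islands among 54058 in all. They merged into 10 of 23510 regions genome-wide, where islands of different libraries that shared a base or touched were joined. The 8 genes of the cluster are, in the order of the RefSeq annotation, Gimap8, Gimap9, Gimap4, Gimap6, Gimap7, Gimap1, Gimap5 and Gimap3. The zinc finger gene Zfp775 precedes them and Tmem176b follows.

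Gimap proteins (GTPases of immunity-associated proteins) share a GTP-binding domain and are found mainly in lymphocytes, where they act on organelle membranes and on cell survival. Gimap5 sits on lysosomal membranes, and its loss depletes peripheral T cells. Gimap3 is its close relative and acts with it in T cell survival. Gimap1 is needed for mature T and B cells, Gimap6 takes part in autophagy, and Gimap4 has been linked to T cell death. Gimap8 carries several GTP-binding domains in 1 protein, and Gimap7 forms dimers that hydrolyse GTP. mSin3A is a scaffold that holds histone deacetylases in a co-repressor complex and reaches DNA through the factors that recruit it. Tcf1 and Lef1 are HMG-box DNA-binding factors of the T cell lineage.

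Chromatin came from splenic CD8+ T cells sorted for high surface TCRbeta. Mice were wild type (WT) or Tcf1-/-Lef1-/- (deficient), the deficient mice having lost both factors through CD4-Cre, a recombinase driven from Cd4 sequences, which acts in the thymus before the CD4 and CD8 lineages part. Each genotype gave 1 mSin3A ChIP-seq library in condition 1 and 1 in condition 2; what sets the conditions apart is not stated in the labels. With 1 library in each group there is no replicate check, no test was made between genotypes, and all intervals cover counting error only. The series of 6 samples also has 2 input libraries, which were not analysed here, and the background at the cluster is therefore not known. The lists held 11151 to 15954 islands and 1792952 to 1917097 island reads, which is the only measure of depth. The labelled cell type and the deletion could not be checked from islands that are not tied to genes.

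No annotation of build mm9 was used here, so no island was assigned to a single Gimap gene, and islands are described by position and by region number, from 1 at the Gimap8 end to 10 at the Gimap3 end. The promoters of all 8 genes are in RefSeq on another build, GRCm38.p6, whose positions must not be set against those of the islands. They gave 9 promoter windows, 1 per gene and 2 for Gimap8, each from 250 bases before to 50 bases after the start. The stretches below are examples that hold matches to the motifs of T cell factors that were searched. Other matches, among them those of Gimap9 and Gimap4, are not printed. Motif matches are in capitals, all are written 5′ to 3′ on the strand of the gene, and positions are counted from the start.

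Gimap7, GRCm38.p6 chr6:48718641-48718670, plus strand, positions 21 to 50, with the TCF/LEF core: agagtcctggtgcagtcagattCTTTGAAg

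Gimap6, GRCm38.p6 chr6:48708245-48708344, minus strand, positions -100 to -1, with an ETS core: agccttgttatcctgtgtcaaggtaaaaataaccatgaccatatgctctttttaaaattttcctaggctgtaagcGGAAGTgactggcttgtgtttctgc

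Gimap5, GRCm38.p6 chr6:48746097-48746196, plus strand, positions -100 to -1, with an ETS core: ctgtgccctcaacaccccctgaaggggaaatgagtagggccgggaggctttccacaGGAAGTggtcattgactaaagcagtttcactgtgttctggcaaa

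Gimap1, GRCm38.p6 chr6:48738927-48739046, plus strand, positions -120 to -1, with a RUNX core on the other strand: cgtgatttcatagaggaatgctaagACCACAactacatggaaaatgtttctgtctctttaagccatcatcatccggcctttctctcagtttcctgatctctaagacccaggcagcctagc

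Both strands of the windows were searched for fixed letters, and each share is given beside that over all 32851 RefSeq promoters of the same length. The TCF/LEF core CTTTGAA was present in 1 of the 9 Gimap windows, that of Gimap7 at position 43, against 5.14% of all promoters. The other form searched, CTTTGTT, was in none of the 9, against 5.85%. Further forms of the TCF/LEF core were not searched. The short ETS core GGAAGT was in 4 windows, those of Gimap9, Gimap6, Gimap1 and Gimap5, against 23.8%. None of them held the longer form CCGGAAGT, which contains the short one and occurs in 3.89% of promoters. The RUNX core TGTGGT was in the windows of Gimap4, Gimap7 and Gimap1, against 16.8%, and the TATA box TATAAA in that of Gimap6, on the strand opposite the gene, against 13.6%. The Gimap windows had a median GC content of 48% and a median of 4 CpG pairs, against 52.7% and 7 over all promoters. These are matches of letters in short windows, and no factor's binding was measured there.

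mSin3A islands filled about as much of the Gimap cluster in deficient as in WT cells. WT condition 1 had 12 islands that covered 46.0% of the window, and WT condition 2 had 7 islands that covered 47.9%. Deficient condition 1 had 13 islands over 50.4% and deficient condition 2 had 12 islands over 50.9%. The coverage of the libraries thus lay in a narrow range, with both deficient libraries slightly above both WT libraries. That order did not hold with lists of equal length, where called length was 66390 and 71793 bp in WT (conditions 1 and 2). In deficient cells it was then 69391 and 67193 bp. The low island number of WT condition 2 went with wider islands, whose median width was 8799 bp against 4199 to 5499 bp in the other libraries. All islands of the cluster lay wholly inside the window.

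The reads in these islands were close to level as well. WT cells had 2044 reads (exact Poisson 95% interval 1956 to 2135) in condition 1 and 2186 reads (2095 to 2280) in condition 2. Deficient cells had 2086 reads (1997 to 2177) and 2173 reads (2083 to 2266). All 4 intervals overlapped. The cluster held 0.110%, 0.122%, 0.110% and 0.113% of the island reads of WT condition 1, WT condition 2, deficient condition 1 and deficient condition 2, respectively.

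**Figure D1:**
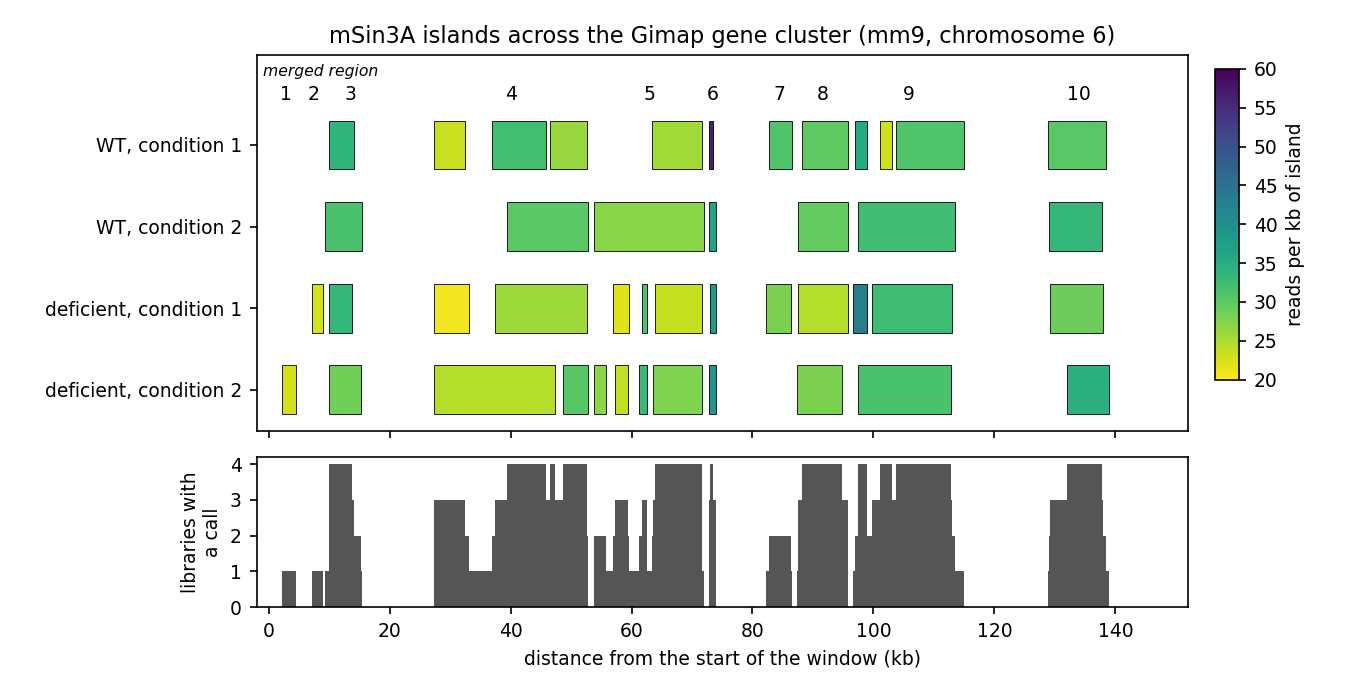
Upper panel: mSin3A islands of each library along the 150 kb window, coloured by reads per kb of island, with the numbers of the 10 merged regions above; lower panel: number of libraries in which each base was called. Blocks called in all 4 libraries recur along the window, most of them in regions 3, 4, 5, 8, 9 and 10, and wide gaps are called in no library.

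The cluster stood out from its surroundings. In the 150 kb on the proximal side, toward Zfp775, islands covered 8.53% and 2.67% of the sequence in WT and 7.20% and 6.93% in deficient cells (conditions 1 and 2). On the distal side, toward Tmem176b, they covered 3.999% and 0% in WT and 4.40% and 5.20% in deficient cells. Coverage inside the window was therefore several times that of either flank in every library. The first island past the distal boundary began 14801 and 15601 bp away in the deficient libraries (conditions 2 and 1), but 72801 and 154401 bp away in WT conditions 1 and 2. These nearer deficient islands held 61 and 72 reads, few compared with the medians of 112 and 94 reads over all islands of their lists. On the proximal side the nearest island lay 31801 to 32001 bp away in 3 libraries and 2801 bp away in WT condition 1.

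Set against the rest of the genome, the cluster was among the most densely called stretches of its length. The comparison was with 7756 windows of 150 kb that held an island in at least 1 library. Called length in the cluster was 68988 bp in WT condition 1, and 34 windows had as much or more. In WT condition 2 it was 71793 bp, matched by 22 windows, and in the deficient libraries it was 75587 and 76388 bp, each matched by 12 windows. These places correspond to the 99.6th and 99.7th percentiles in WT and the 99.8th in both deficient libraries, where the median window had 3598 to 4198 bp. Counting for each window the lowest of its 4 libraries, 9 windows reached the 68988 bp of the Gimap cluster. The window of the cluster was drawn around the genes whereas the others fall on a fixed grid, so these ranks are a description.

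**Figure D2:**
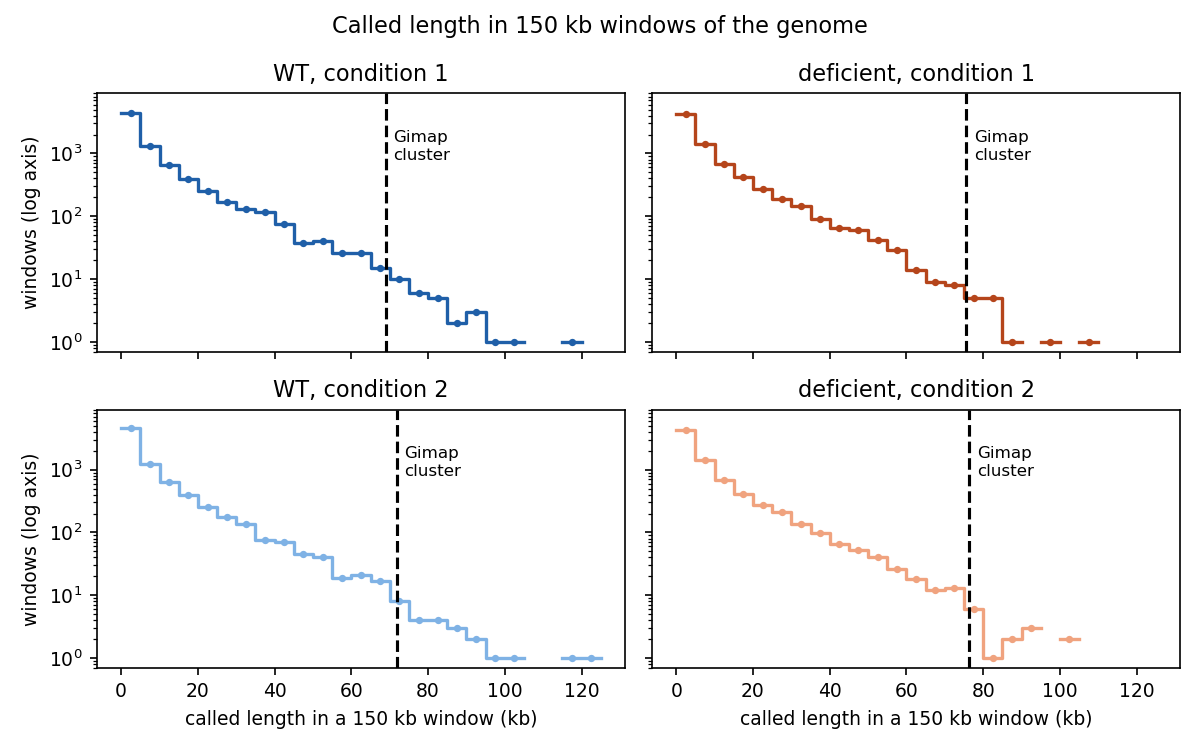
Number of 150 kb windows (log axis) by called length per window in steps of 5 kb, for each library; the dashed line marks the Gimap cluster. In all 4 libraries the cluster lies in the sparse upper tail, at 68988 to 76388 bp.

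The islands stood out by width more than by density. Over the whole cluster WT islands averaged 29.6 reads per kb in condition 1 and 30.4 in condition 2, and deficient islands averaged 27.6 and 28.4. The means over all islands of the same lists were 28.7 and 29.3 in WT and 29.04 and 29.3 in deficient cells. By these means WT cells had a slightly higher density in the cluster than over their whole list, and deficient cells a slightly lower one. By the median island every library was higher than its list. WT was at 30.7 against 26.5 in condition 1 and 31.5 against 28.2 in condition 2. Deficient cells were only slightly higher, at 27.9 against 27.2 in condition 1 and 28.3 against 28.1 in condition 2. Between genotypes, the log2 ratio of mean cluster density, deficient over WT, was -0.102 in condition 1 and -0.098 in condition 2, not centred. The 95% counting intervals of the cluster densities were 28.4 to 30.9 and 29.2 to 31.8 in WT. In deficient cells they were 26.4 to 28.8 and 27.3 to 29.7. Within each condition these intervals overlapped, but the density of each genotype lay outside the interval of the other. Overlap does not show that the density ratio includes equality, and no interval of that ratio was computed. Median island width was above that of the list in every library, at 5499 against 3599 bp and 8799 against 4199 bp in WT and at 4199 against 3199 bp and 4699 against 3799 bp in deficient cells.

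Most Gimap regions were called in every library. Among its 10 merged regions, all 4 libraries had an island in 7, against 24.0% of the 23510 regions genome-wide. None was called in both WT libraries alone, where the background was 2.91%, and none in both deficient libraries alone, where it was 8.98%. Region 7 was called in both condition 1 libraries and in neither condition 2 library, a pattern of 1.87% of all regions. Regions 1 and 2 were each called in 1 library, as were 48.1% of all regions. Wider regions have more room to meet an island of each list, and the 7 shared Gimap regions had a median span of 10199 bp against 7599 bp for the 5637 regions called in all 4 libraries genome-wide.

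The Gimap8 end carried the regions called in 1 library. Region 1, 48587201 to 48589599, was listed in deficient condition 2 alone, with 54 reads. Region 2, 48592201 to 48593999, was listed in deficient condition 1 alone, with 41 reads. Both were short and thin, at 22.5 and 22.8 reads per kb. The reads at these places in the other libraries are unknown, because only listed islands carry a count.

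Region 3, 48594401 to 48600399, was the first shared one. WT had 143 and 189 reads there, and deficient cells had 127 and 149 (conditions 1 and 2, as in the following). WT had more reads in both conditions. The counting intervals used here are those of ratios centred on the median of all shared regions, as set out below. Every such interval reached past equality, the genotype ratio in condition 2 being -0.26 (log2, deficient over WT, -0.58 to 0.06). In the deposited reads that ratio was -0.34, for which no interval is given. With scaling by total island reads it was -0.44. The merge of islands within 2 kb joined regions 2 and 3 and turned the order in condition 1, to 143 reads in WT and 168 in deficient cells. In 3 of the lists its island began at the same base, 48595001, the islands being placed on a 200 bp grid. A gap of 12001 bp with no call in any library followed.

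Region 4, 48612401 to 48637799, was the widest. WT had 557 and 406 reads over 19797 and 13399 bp, and deficient cells had 512 and 616 reads over 20998 and 24198 bp. WT condition 2 was the low one: it had no island over the first 12000 bp of the region, where the other 3 libraries began at the same base. The last bases of the region agreed within 200 bp in all 4 lists. In reads per kb, WT was at 28.1 and 30.3 and deficient cells at 24.4 and 25.5, and the library with the fewest reads was the densest.

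Region 5, 48638801 to 48656999, varied most. WT had 209 and 494 reads over 8199 and 18199 bp, and deficient cells had 265 and 374 reads over 11197 and 13596 bp. The order of the genotypes was opposite in the conditions, deficient cells being higher in condition 1 and lower in condition 2. A single island spanned the region in WT condition 2, while in the deficient libraries it was broken into 3 and 4 islands and in WT condition 1 only its distal part was called. That distal part, 48648801 to 48656599, was called in all 4 libraries. Density varied less, from 23.7 to 27.5 reads per kb.

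Region 6, 48657801 to 48658999, was the smallest shared region and the densest. WT had 34 and 44 reads and deficient cells had 38 and 47, in islands of 599 to 1199 bp, which gave 56.8, 36.7, 38.0 and 39.2 reads per kb. With so few reads the library that looks densest, WT condition 1, also has the shortest island, and every counting interval of a ratio reached past equality.

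Region 7, 48667201 to 48671599, was the one region that followed the condition. It held 118 reads in WT condition 1 and 117 reads in deficient condition 1, near the middle of those lists, whose medians were 106 and 94 reads. No island was listed there in condition 2 in either genotype. With islands within 2 kb merged it became part of a region with regions 8 and 9 that was called in all 4 libraries, and no region then followed the condition.

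Regions 8, 9 and 10, toward the Gimap3 end, varied less between libraries than regions 4 and 5. Region 8, 48672401 to 48680799, had 227 and 242 WT reads against 200 and 206 in deficient cells. Region 9, 48681601 to 48699999, had 465 and 516 WT reads against 531 and 486. Region 10, 48713801 to 48723999, had 291 and 295 WT reads against 255 and 241. In regions 8 and 10 deficient cells had fewer reads than WT in both conditions. Every counting interval of the centred genotype ratios of these regions reached past equality. The centred ratio of region 10 in condition 2 was -0.21 (log2, deficient over WT, -0.46 to 0.04). In the deposited reads that ratio was -0.29, for which no interval is given. With scaling by total island reads it was -0.39. In region 9 deficient cells were higher in condition 1, with a centred log2 ratio of 0.25 (0.07 to 0.44). In condition 2 the interval of region 9 reached past equality. The merge within 2 kb turned the order in condition 1 for the region that then held region 8, to 810 reads in WT and 848 in deficient cells. Per kb of island the order of region 10 was reversed in condition 2, with 33.5 reads per kb in WT and 34.4 in deficient cells. The longest stretch of the window called in all 4 libraries, 8999 bp from 48688801 to 48697799, lay in region 9. It was followed by the longest stretch called in none, 13801 bp from 48700000 to 48713800.

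**Figure D3:**
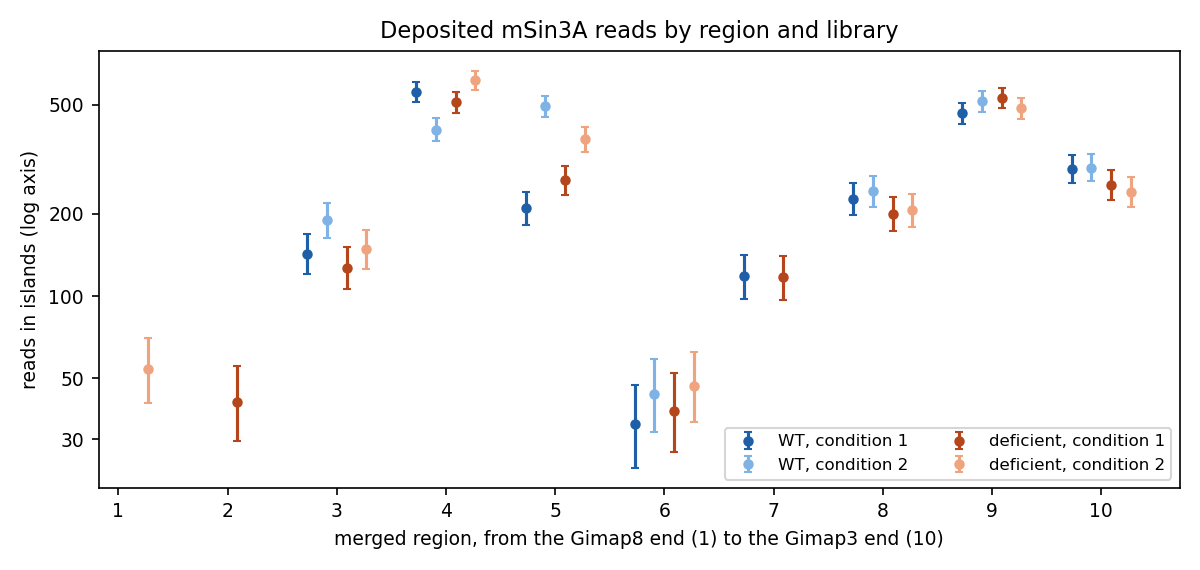
Deposited reads (log axis) in each of the 10 merged regions for the 4 libraries; bars are exact Poisson 95% intervals, and a region with no point for a library is not listed there. Regions 4 and 5 spread most between libraries, from 406 to 616 and from 209 to 494 reads, and region 7 has points in condition 1 alone.

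None of the 7 shared regions differed 2-fold between genotypes in either condition. Ratios of deficient over WT reads are given on the log2 scale after subtracting the median over the 5637 regions called in all 4 libraries, which was -0.06 in condition 1 and -0.09 in condition 2. Over those regions, 5.57% in condition 1 and 5.96% in condition 2 were at least 2-fold apart in one direction or the other. At such shares, the lack of a 2-fold region among 7 does not set the cluster apart. For the cluster as a whole the ratio was 0.09 (95% counting interval 0.002 to 0.18) in condition 1 and 0.08 (-0.01 to 0.16) in condition 2. These are 1.06-fold and 1.05-fold, and both turned negative when libraries were scaled by total island reads (-0.004 and -0.11) or when reads were taken per kb of called length (-0.11 and -0.09), so no direction is given for the cluster.

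Among single regions, the log2 ratio ran from -0.13 to 0.40 in condition 1, with a median of -0.06, and from -0.32 to 0.69 in condition 2, with a median of -0.15. The median size of the ratio, whichever its sign, was 0.13 and 0.21, against 0.26 and 0.27 over all regions called in every library. Intervals that excluded equality were found for 2 of the 7 regions in each condition, against 41.7% and 44.6% of all shared regions. In condition 1 these were region 5 at 0.40 (0.14 to 0.67) and region 9 at 0.25 (0.07 to 0.44). In condition 2 they were region 4 at 0.69 (0.50 to 0.87), which is 1.61-fold, and region 5 at -0.32 (-0.51 to -0.12). No region had such an interval on the same side in both conditions. The share of all shared regions that did was not computed, so this does not set the cluster apart. When islands within 2 kb of each other were merged, regions 4, 5 and 6 became 1 region, whose ratios were 0.08 and 0.21.

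**Figure D4:**
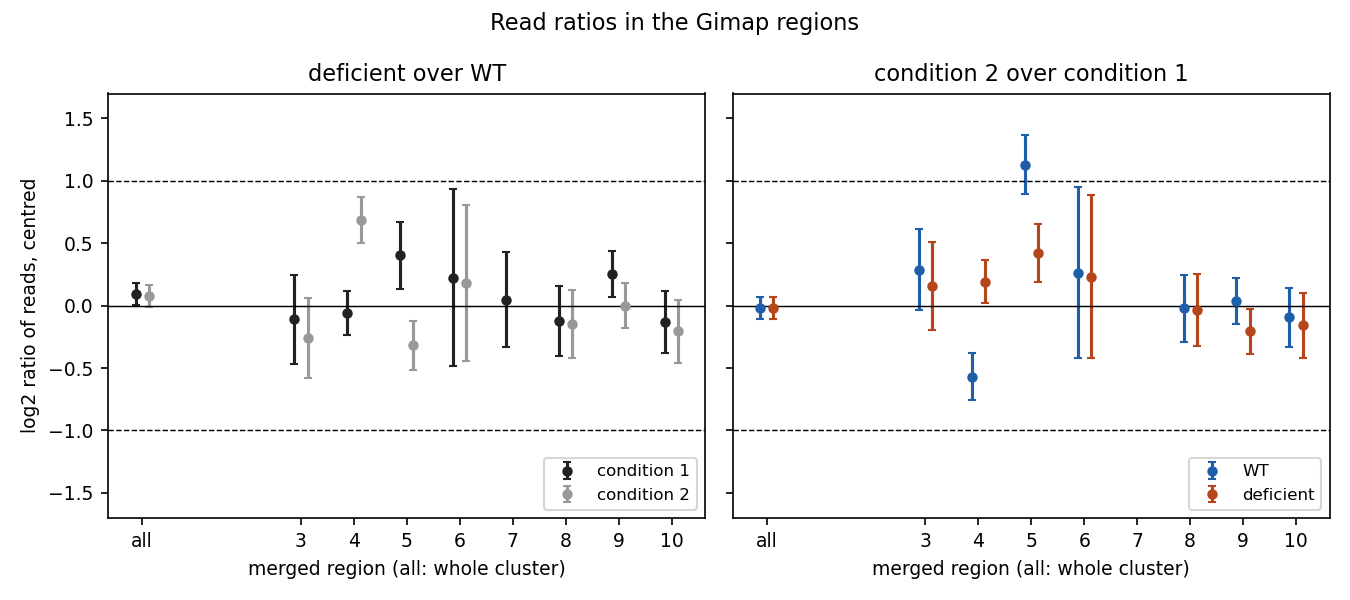
Log2 ratio of reads, centred on the median of all shared regions, for the whole cluster (all) and for each Gimap region; bars are exact 95% intervals from counting error, and dashed lines mark 2-fold. Between genotypes (left) no point passes 2-fold; between conditions (right) region 5 in WT passes it.

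Between genotypes the median size of the log2 ratio over the 7 regions was 0.13 in condition 1 and 0.21 in condition 2, as given above. Between conditions it was 0.26 in WT and 0.19 in deficient cells, against 0.25 and 0.23 over all shared regions. These ratios of condition 2 over condition 1 were centred in the same way, on medians of 0.11 in WT and 0.08 in deficient cells. In WT, region 5 had a centred ratio of 2.19 (1.86 to 2.58), or 2.36 in the deposited reads, the single one of the cluster past 2-fold, where 5.68% of all shared regions passed. The merge within 2 kb ended that call, with a centred ratio of 1.09 for the joined region. In deficient cells no Gimap region passed 2-fold between conditions, against 3.89% of all shared regions, and the centred ratio of region 5 was 1.34 (1.14 to 1.57). Region 4 went the other way in WT, with 1.48 times (1.30 to 1.69) as many reads in condition 1 after centring and 1.37 times in the deposited reads. For the whole cluster the centred log2 ratio was -0.02 in both genotypes, and in the deposited reads it was 0.10 in WT and 0.06 in deficient cells.

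Called length and density were also compared on the log2 scale (deficient over WT, not centred). In region 4 the length differed by 0.08 and 0.85 and the density by -0.21 and -0.25 in conditions 1 and 2. The higher reads of deficient cells in condition 2 thus went with a longer called stretch of lower density. In region 5, length differed by 0.45 and -0.42 and density by -0.11 and 0.02, so that the reads had the sign of the length in both conditions. Over the 7 shared regions, density was lower in deficient cells in 6 in condition 1, against 49.0% of all shared regions, and in 4 in condition 2, against 50.8%, a share near the background. The part played in the read ratios by where an island was broken or joined was not tested.

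Base by base, the libraries agreed more inside the Gimap window than they did genome-wide. Of the window, 64.3% was called in at least 1 library, and of these called bases 49.99% were called in all 4 and 17.2% in a single one. Over the whole genome the same shares were 16.4% and 50.3%. Within regions called in all 4 libraries, which is a closer comparison, 54.9% of the called bases of the Gimap regions were common to all libraries, against 37.1% over the 5637 regions. The Gimap regions were the wider ones, with a median span of 10199 against 7599 bp. Each library called 46.0% to 50.9% of the window, whereas its median 150 kb window elsewhere had 3598 to 4198 bp called. The more of a stretch is called, the more its libraries can share. The part of this in the higher agreement was not tested. The bases common to all 4 made up 11 stretches of 399 to 8999 bp, 48189 bp in total.

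Few bases followed the genotype. Bases called in both WT libraries alone came to 800 bp, or 0.830% of the called bases of the window, and bases called in both deficient libraries alone came to another 800 bp. Genome-wide these classes made up 3.90% and 6.28%. Bases called in both libraries of condition 1 alone came to 3999 bp (4.15%, against 2.38% genome-wide), nearly all of them in region 7. Those of condition 2 alone came to 4600 bp (4.77%, against 2.47%). In the Gimap window the bases that separated the conditions therefore outnumbered those that separated the genotypes, whereas genome-wide the genotype classes were the larger ones.

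The closest pair of libraries in the window was of different genotype. WT and deficient cells shared 80.7% of their called bases in condition 1 and 69.2% in condition 2. The WT libraries shared 64.1% with each other and the deficient libraries 71.2%. The remaining pairs, of different genotype and condition, shared 64.5% and 70.2%. Genome-wide, every pair shared 34.6% to 44.1%, with the deficient pair the closest at 44.1% and the condition 1 pair the least alike. The shares were not adjusted for how much of the window was called.

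**Figure D5:**
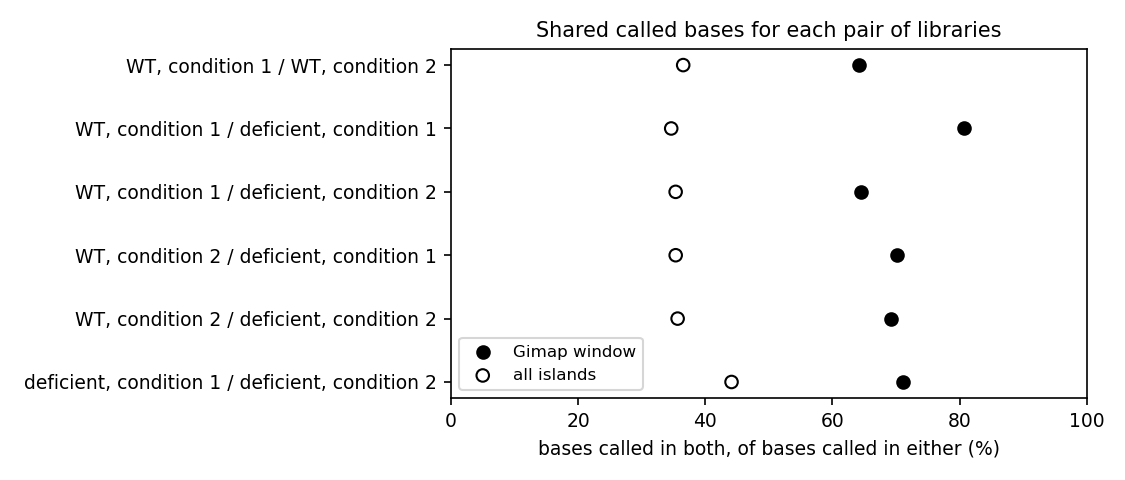
Bases called in both libraries as a percentage of bases called in either, for each pair of libraries, within the Gimap window (filled) and over all islands (open). All filled points lie at 64.1% to 80.7%, to the right of all open points at 34.6% to 44.1%. The shares are not adjusted for how much of the window was called.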

How the data were processed

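mSin3A ChIP-seq islands of 4 libraries were used. Per the submitters' processing notes, the tools were FastQC, Bowtie2 2.2.5 (alignment) and SICER 1.1 (islands), on mm9; SICER's settings: not given in the sources used here. Each list has 4 columns and no header. The fourth was read as the deposited read count per island, from its layout and values, not scaled for depth or width. Starts are printed 1-based, 1 above those deposited; widths are the end minus the deposited start. Islands sharing a base or touching were merged into regions. The 8 Gimap genes and every region in the window were named, with no choice by value. The members and lists were chosen with earlier results of these data known. The comparison of bases within regions called in all libraries, and the alternatives for the ratios between conditions, were added after the data were seen. Ratio intervals are exact (Clopper-Pearson), from counting alone. Alternatives covered merging, list length, island width, scaling and window placement. Functions were tested on simulated data. Python 3.11.15, numpy 2.4.6, pandas 2.3.3, scipy 1.17.1 and matplotlib 3.10.9 were used.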

Additional observations from a re-analysis of the deposited data

Results flagged for a closer look

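Region 5 of the Gimap cluster, chromosome 6, 48638801 to 48656999, had more reads in deficient cells in one condition and fewer in the other. The log2 ratio of deficient over WT reads was 0.40 in condition 1 and -0.32 in condition 2, and the counting intervals of both excluded equality. The difference between the conditions was not tested, since each rests on 1 library per genotype. Called length in this region differed in the same directions, and per kb of called length the log2 ratios were -0.11 and 0.03 after centring.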

How the results depend on the processing

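Merging islands within 2 kb left 5 regions, 4 of them called in all libraries. Keeping the upper 50% of each list by reads, or lists of equal length, left 7 islands of deficient condition 2. In both settings these covered 67193 bp, less than WT condition 2 with 70594 and 71793 bp, respectively. The cluster read ratio was -0.0044 and -0.11 (log2, conditions 1 and 2) with scaling by total island reads, and -0.11 and -0.092 per kb of called length; it lay within its counting interval in the raw reads and with islands wholly inside the window. Of 42 alternative values of the genotype ratio of single regions, 10 left the counting interval of the reported value and 10 had the other sign; none reached 2-fold, the largest being 0.58. No setting gave a region called in 1 genotype alone in both conditions. Windows shifted along the genome moved the percentiles by less than 1 point. No paired analysis was possible because the labels give no replicate numbers; genotype ratios are given within each condition, and the conditions were not treated as replicates. Island reads alone measure depth here.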
